A study of Mus musculus with 16 samples.

Results

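The SWI/SNF chromatin remodeling complex was followed through 10 of its subunit genes, Smarcb1 and 9 core partners, among the 24982 genes of the count table. The members (Smarcb1, Smarca4, Smarca2, Smarcc1, Smarcc2, Smarce1, Arid1a, Arid1b, Pbrm1 and Brd9) were taken by name and not by a threshold on their values, and all 10 had counts in each of the 16 tumors. RNA was sequenced from 16 rhabdoid tumors, each from a different mouse of genotype Smarcb1flox/flox;R26-CreERT2, so that every tumor carried the floxed alleles and a tamoxifen-inducible Cre that is expressed ubiquitously. The 5 intra-CNS tumors, which belong to the Shh subgroup, all came from mice given tamoxifen at E6 and were taken at 30 to 180 days. The 11 Myc tumors were 6 intracranial tumors outside the CNS (E6 in 1, E7 in 1 and E8 in 4, at 52 to 170 days) and 5 extracranial tumors (E6 in 1 and E8 in 4, at 80 to 210 days). No tissue with undeleted Smarcb1 was analysed here, the mice had a mixed 129/SV and C57BL/6 background, and the tumors were bulk samples, in which fewer cells of a type and less RNA per cell cannot be told apart.

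SWI/SNF complexes use the energy of ATP to move or evict nucleosomes, and 1 of the mutually exclusive ATPases, Smarca4 or Smarca2, drives each complex. Smarcc1 and Smarcc2 are scaffolds of the core. Smarcb1 and Smarce1 join that core in the canonical BAF complex, which carries Arid1a or Arid1b, and in the polybromo-associated PBAF complex, which carries Pbrm1. The non-canonical complex holds Brd9 and lacks both Smarcb1 and Smarce1. Biallelic loss of SMARCB1 defines most human rhabdoid tumors, and the mice model that loss.

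Total counts ran from 17889968 to 110177889 per tumor, and libraries were scaled by the trimmed mean of M values (TMM). The 100 most abundant genes took 15.2% to 21.6% of TPM in Shh tumors and 24.0% to 39.6% in Myc tumors. Between Shh and Myc tumors the median gene shifted by -0.15 (log2) with TMM and by 0.20 on log2(TPM + 1), and changes are read beside that shift. Calls over all genes were 3526 higher and 3710 lower in Shh tumors with edgeR on counts, and 7060 higher and 1701 lower with limma on log2(TPM + 1). The tumor of mouse 29048 (intra-CNS replicate 1) stood apart, with 9 oligodendrocyte markers summing to 7289 TPM against 43.2 to 190 TPM in the other 15 tumors. Its 10 neuron markers summed to 5366 TPM against 37.5 to 2389 TPM, and its 7 astrocyte markers to 2629 TPM against 14.4 to 736 TPM. In the tumor of mouse R26P115 (intracranial extra-CNS replicate 6), the transcript of Ttr alone took 20.0% of TPM, and 10 cell cycle genes summed to 164 TPM, the lowest of the 16 tumors. Summed levels of 12 immune markers were 608 to 1004 TPM in Shh, 763 to 5233 TPM in intracranial Myc and 3348 to 7617 TPM in extracranial Myc tumors, and those of 7 fibroblast markers were 117 to 511 TPM in Shh and 624 to 7744 TPM in Myc tumors. No marker of the oligodendrocyte, astrocyte, neuron or fibroblast lists was at 0 in the tumor of mouse 29048. The part of these cells in the values below was not tested, and results that rest on these 2 tumors are given with and without them.

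Promoters are shown for Smarcb1, the deleted gene, and for Brd9, Smarcc2 and Smarca4, the members with the lowest adjusted p between Shh and Myc tumors. Each is the 250 bases before the start of the gene in RefSeq (GRCm38.p6), read 5′ to 3′ on the strand of the gene. Capitals mark GC boxes (GGGCGG on either strand) and ETS motifs (CCGGAAG on either strand).
Smarcb1, chr10:75921615-75921864, minus strand: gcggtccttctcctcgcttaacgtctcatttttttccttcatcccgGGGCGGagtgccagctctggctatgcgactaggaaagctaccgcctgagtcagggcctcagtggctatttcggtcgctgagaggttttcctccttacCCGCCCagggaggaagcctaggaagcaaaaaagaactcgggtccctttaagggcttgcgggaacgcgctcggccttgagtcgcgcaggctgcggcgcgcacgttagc
Smarca4, chr9:21615919-21616168, plus strand: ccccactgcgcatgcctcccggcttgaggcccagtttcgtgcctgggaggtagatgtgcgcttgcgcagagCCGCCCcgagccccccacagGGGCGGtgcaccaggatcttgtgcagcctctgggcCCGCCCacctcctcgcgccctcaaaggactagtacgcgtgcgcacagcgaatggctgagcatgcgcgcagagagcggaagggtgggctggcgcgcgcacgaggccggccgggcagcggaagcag
Smarcc2, chr10:128458986-128459235, plus strand: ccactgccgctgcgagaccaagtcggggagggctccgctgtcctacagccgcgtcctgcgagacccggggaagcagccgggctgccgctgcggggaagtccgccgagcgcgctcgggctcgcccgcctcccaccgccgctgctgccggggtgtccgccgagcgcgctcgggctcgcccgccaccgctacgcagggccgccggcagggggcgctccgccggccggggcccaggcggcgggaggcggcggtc
Brd9, chr13:73937561-73937810, plus strand: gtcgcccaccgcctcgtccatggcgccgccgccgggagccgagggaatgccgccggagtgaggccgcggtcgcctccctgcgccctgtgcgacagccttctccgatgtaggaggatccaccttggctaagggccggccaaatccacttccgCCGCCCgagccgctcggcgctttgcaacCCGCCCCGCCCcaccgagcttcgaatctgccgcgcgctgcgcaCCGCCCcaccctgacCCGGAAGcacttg
A promoter was found for 9 of the 10 members (Smarce1 was the exception), and 7 of these 9 held a GC box, against 32.9% of the 27025 promoters of the same length. The ETS motif was found in 3 of 9 (Brd9, Smarca2 and Smarcc1) and in 7.05% of all. The E-box CACGTG, the core of the site bound by Myc and Max, was found in 1 of 9 (Pbrm1) and in 6.05% of all. CCAAT was found in 0 of 9 and in 34.5% of all. GC content was 59.6% to 80.8% in the 9 windows, with a median of 52.0% over all promoters, and the shares of motifs were not adjusted for it. The Smarcc2 window had the highest GC content of the 9 and none of the marked motifs. A match describes the letters only.

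Smarcb1 itself (ENSMUSG00000000902.13, chr10:75896769-75921617, minus strand, GRCm38), the floxed gene, was detected in every tumor. Among Shh tumors it was at 3.99 TPM in mouse 38594A, 4.48 in R26P98, 7.08 in R26P87, 9.91 in 29050A and 58.1 in 29048. In the 6 intracranial Myc tumors it ran from 6.48 TPM in 43992A over a median of 11.2 to 43.7 in R26P115. Extracranial Myc tumors had 8.63 TPM in 43990A, 12.2 in 43987A, 18.5 in R26P123, 22.1 in 43998A and 26.1 in 43825B. Thus 4 of 5 Shh tumors lay below 10 TPM, the fifth was the highest of all 16, and the groups overlapped. Raw counts behind these values were 67 to 1134 per tumor, above the floor of 3 counts used here. The range over the 16 tumors was 14.6-fold on the TPM scale, and the within-group SD of log2(TPM + 1) was 1.03, the highest of the 10 members, against 0.582 for the median of 14803 genes with a mean of 50 counts or more. That spread rested on 29048 and R26P115. In the other 14 tumors the range was 6.56-fold (3.99 to 26.1 TPM), and the SD was 0.534, below that of Smarca2 (0.632), with 0.479 for the median gene. The sources used here do not give which part of the gene the floxed alleles delete. RNA from recombined alleles and RNA from cells without recombination are therefore counted together.

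**Figure D1:**
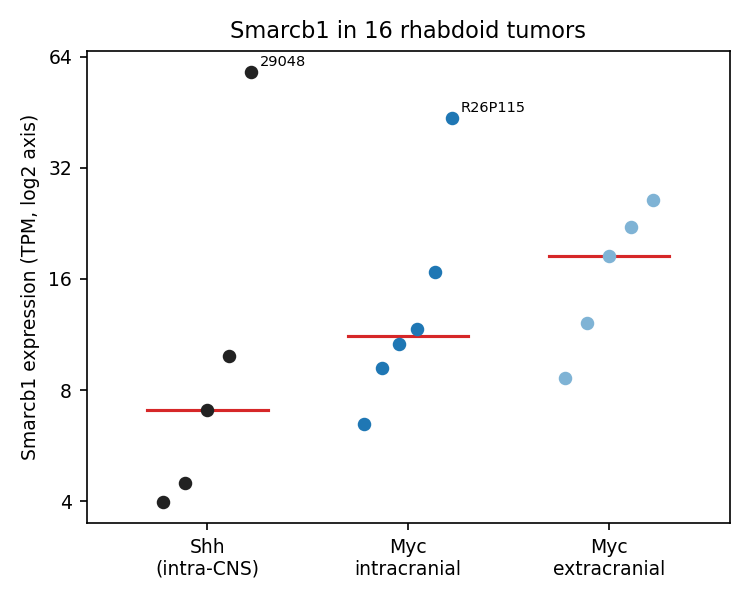
Smarcb1 expression in each of the 16 tumors (TPM, log2 axis) by group, with points for tumors and red lines for group medians. 4 of 5 Shh tumors lie below 10 TPM, and the tumors of mice 29048 (58.1 TPM) and R26P115 (43.7 TPM) are the highest of their groups.

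The first comparison asked whether the subunit genes differ between the Shh and Myc subgroups. For Smarcb1, edgeR's quasi-likelihood test gave a log2 fold change of -0.59 (SE 0.63, n = 5 against 11, adjusted p = 0.480 over all genes), which is within the spread between tumors. That value rested on single tumors: without mouse 29048 it was -1.97 (adjusted p = 0.0147), and without both 29048 and R26P115 it was -1.67 (adjusted p = 0.00847), a set of tumors chosen after the data were seen. Mouse names follow 2 schemes, numbers in 11 mice and R26P in 5. In the numbered mice alone (3 Shh and 8 Myc) the fold change was 0.14 (adjusted p = 0.891), and in the R26P mice alone (2 and 3) it was -2.74 (adjusted p = 0.239). In 29048, where Smarcb1 was high, the brain cell markers above were high too, and their part in its level was not tested.

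Of the 10 members, 5 were higher in Shh tumors and 0 lower at an adjusted p under 0.05 (Smarcc2, Brd9, Smarca4, Smarce1 and Smarca2). Over all 21854 genes tested, 33.1% passed that threshold, 16.1% higher and 17.0% lower. The median log2 fold change of the 10 members was 0.62, against -0.15 for all genes, and 9 of 10 were above 0. Differences of the called members were moderate, at most 2.26-fold (Smarca2), and only Smarca2 also passed a fold threshold of 1 on the log2 scale, as did 5689 of the 21854 genes tested. The count was 1 among tumors induced at E6 alone, where 3742 of 20904 genes were called. When single tumors were left out it ran from 2 to 6, with 5827 to 8642 calls over all genes. It was 2 without R26P87 (6134 of 21838 genes) and 3 without 38594A, 29050A, R26P98 or 43989C. The 6 without 29048 were 5 higher and 1 lower (Smarcb1), with 6202 of 21777 genes. On log2(TPM + 1), 9 of 10 passed with limma, as did 40.1% of all genes (7060 higher and 1701 lower). Without 29048 and R26P115, 7 members were called by edgeR, 6 higher and 1 lower (Smarcb1), with 35.0% of all genes.

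The ATPase Smarca4 (Brg1; chr9:21616169-21704230) was at 101.4 TPM in 29048, 165 in 29050A, 166 in 38594A, 182 in R26P98 and 213 in R26P87 among Shh tumors. Intracranial Myc tumors ran from 40.1 TPM over a median of 63.7 to 78.9, and extracranial Myc tumors had 55.5, 80.4, 81.7, 97.5 and 107 TPM. All 5 Shh tumors lay above the intracranial Myc tumors in TPM, as was found for 17.4% of all genes. In TMM-normalized library-scaled counts (CPM), where 7.88% of genes were separated in this way, the groups overlapped, since 29048 (208 CPM) lay below R26P170 (232 CPM). On both scales 4 of 5 lay above all Myc tumors. The log2 fold change was 0.66 (SE 0.20, edgeR adjusted p = 0.0162). The call was lost only without the tumor of R26P87 (intra-CNS replicate 5) when single tumors were left out (adjusted p = 0.0582).

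Smarca2 (Brm; chr19:26605050-26778322), the alternative ATPase, had the largest fold change of the members and a within-group SD of log2(TPM + 1) of 0.776, second to Smarcb1 over the 16 tumors. Shh tumors had 54.3, 56.0, 76.3, 93.2 and, in 29048, 100.7 TPM. Intracranial Myc tumors ran from 8.63 TPM over a median of 18.4 to 66.6, and extracranial Myc tumors had 9.07, 12.0, 18.3, 18.5 and 31.9 TPM. The highest Myc value was that of R26P115, which overlapped with the Shh range, and without it the Myc tumors ended at 36.4 TPM. The log2 fold change was 1.18 (SE 0.43, edgeR adjusted p = 0.0440). This call was weak, since it was lost in 13 of 16 fits that left out a single tumor (adjusted p of 0.0522 to 0.103 in those), while without R26P115 the value was 1.56 (adjusted p = 0.00101).

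Among the core scaffolds, Smarcc2 (Baf170; chr10:128459248-128490482) separated the subgroups and its paralog Smarcc1 (Baf155; chr9:110117708-110240178) did not pass edgeR's test. Both passed with limma on log2(TPM + 1), as did 40.1% of all genes, and their fold changes were not tested against each other. Smarcc2 was at 204, 218, 233, 244 and 250 TPM in Shh tumors. It ran from 53.0 TPM over a median of 79.2 to 115 in intracranial Myc tumors, and was at 80.2, 81.6, 82.1, 86.3 and 111 TPM in extracranial ones. The groups did not overlap in TPM or in CPM, a property shared by 12.9% of all genes in TPM and by 5.43% in CPM in this direction. The log2 fold change was 0.92 (SE 0.14, edgeR adjusted p = 0.000195), and the call was kept in all 16 fits that left out a single tumor. It was not kept among tumors induced at E6 alone (5 Shh and 2 Myc), at 0.67 (adjusted p = 0.107).

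Smarcc1 was at 56.0 TPM in 29048 and 103 to 174 TPM in the other 4 Shh tumors, against 26.7 to 119 TPM in Myc tumors, and the log2 fold change was 0.41 (SE 0.29, edgeR adjusted p = 0.283). An exon of Smarcc1 overlaps Dhx30 on the opposite strand, which had up to 14444 counts, and the sources used here do not state whether strand was used in counting. Smarce1 (Baf57, a core subunit of BAF and PBAF; chr11:99209047-99231017, minus strand), was at 111 TPM in 29048 and 196 to 240 TPM in the other 4 Shh tumors. Its Myc tumors ran from 62.9 to 138 TPM, with 43992A highest. The log2 fold change of Smarce1 was 0.59 (SE 0.19, edgeR adjusted p = 0.0248), and the call was lost in 5 of 16 fits that left out a single tumor: those without 38594A, 29050A, R26P98 and R26P87 among Shh tumors and without 43989C among Myc tumors (adjusted p of 0.0516 to 0.0790).

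Of the subunits that set the type of complex, Brd9 (chr13:73937811-73960895), a bromodomain protein of the non-canonical complex, had the lowest adjusted p. The BAF and PBAF members Arid1a, Arid1b and Pbrm1 did not pass edgeR's test. They passed with limma on log2(TPM + 1), as did 40.1% of all genes, and fold changes were not tested against each other. Brd9 was at 70.9, 73.7, 82.7, 84.2 and 89.9 TPM in Shh tumors. It ran from 25.8 TPM over a median of 28.9 to 35.1 in intracranial Myc tumors, and was at 27.6, 28.8, 30.3, 34.3 and 34.9 TPM in extracranial ones. Again the groups did not overlap on either scale, and the within-group SD of log2(TPM + 1) was 0.144, the lowest of the 10 members. The log2 fold change was 0.87 (SE 0.13, edgeR adjusted p = 0.000123), and it was the only member called among tumors induced at E6 alone (0.94, adjusted p = 0.0287), where 17.9% of all genes were called.

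Arid1a (Baf250a; chr4:133679008-133756769, minus strand) was at 76.9 TPM in 29048 and 150 to 277 TPM in the other 4 Shh tumors, against 55.0 to 146 TPM in Myc tumors. Its log2 fold change of 0.68 (SE 0.27) had an edgeR adjusted p of 0.0655. It passed without 29048 (0.89, adjusted p = 0.0114), without 29225D (0.76, adjusted p = 0.0425), without both 29048 and R26P115 (0.86, adjusted p = 0.0125) and with DESeq2 (0.70, adjusted p = 0.0327). Arid1b (Baf250b; chr17:4994332-5347656) ran from 28.4 to 41.9 TPM in Shh and from 9.13 to 57.4 TPM in Myc tumors, with the extracranial tumor of 43990A highest of all 16 and R26P115 lowest. Its log2 fold change was 0.13 (SE 0.28, edgeR adjusted p = 0.733). Pbrm1 (Baf180; chr14:31019138-31121592), the polybromo subunit of PBAF, ran from 30.5 to 66.5 TPM in Shh and from 22.6 to 38.5 TPM in Myc tumors, with 4 of 5 Shh tumors above all Myc tumors in TPM and 2 of 5 in CPM. Its log2 fold change was 0.19 (SE 0.16, edgeR adjusted p = 0.367). Exons of Pbrm1 overlap Gnl3 and Smim4 on the opposite strand, with up to 14280 and 593 counts.

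**Figure D2:**
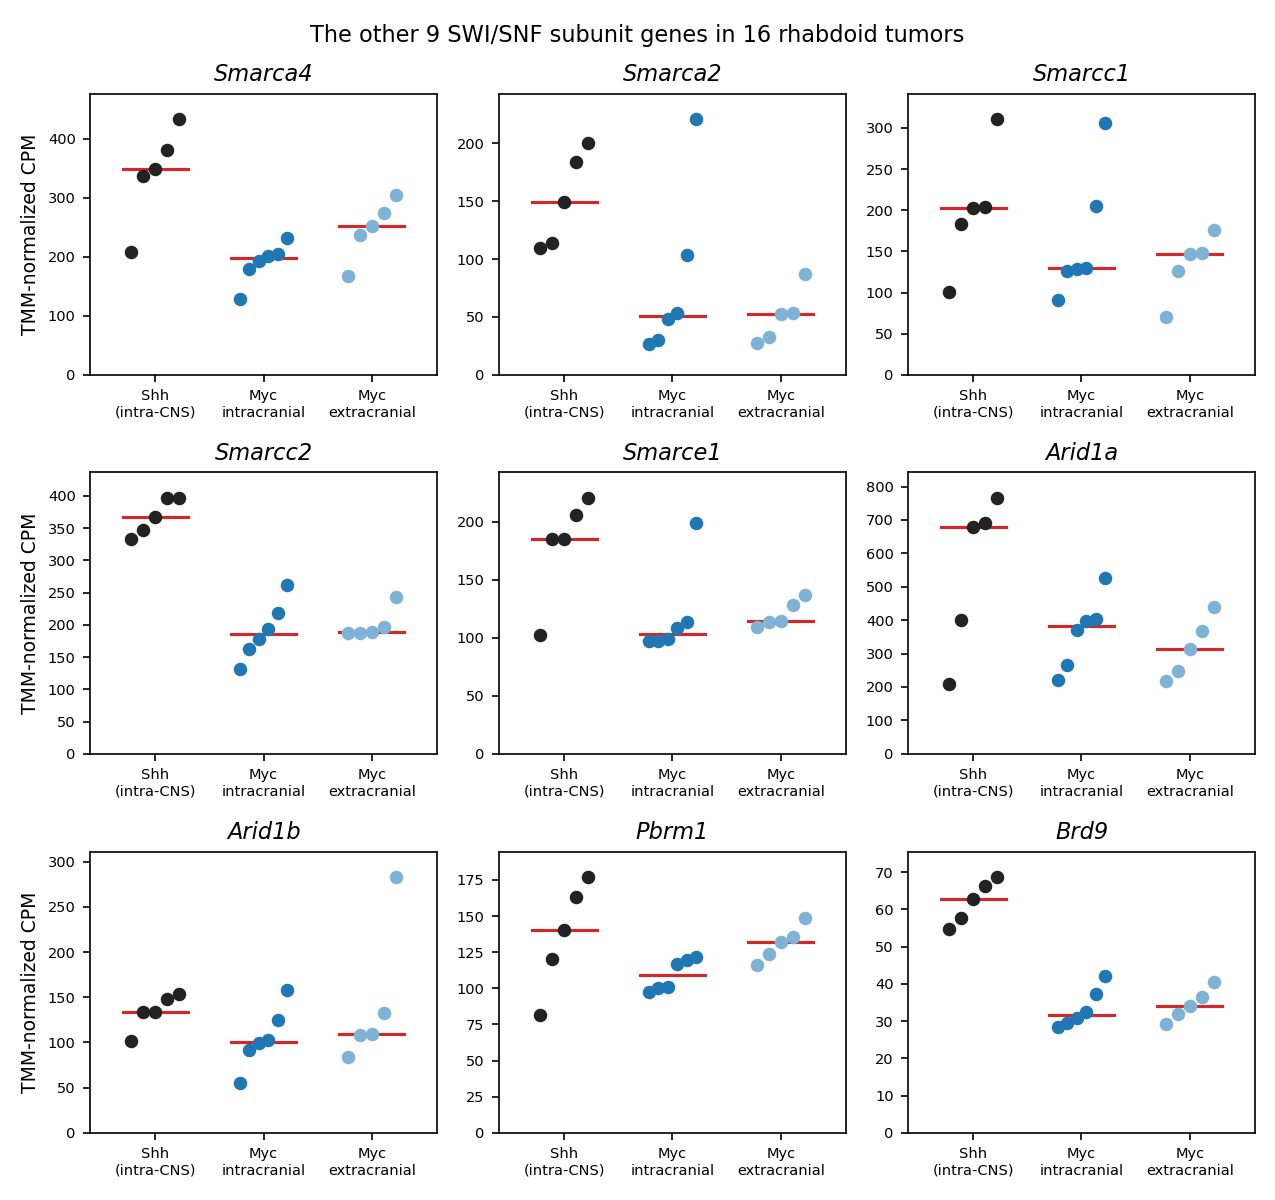
TMM-normalized CPM of the other 9 subunit genes in each tumor by group, with points for tumors and red lines for group medians. Only for Smarcc2 (333.8 to 397 against 132 to 261 CPM) and Brd9 (54.6 to 68.7 against 28.4 to 42.2 CPM) do all 5 Shh tumors lie above all 11 Myc tumors.

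Against each Myc site alone, 3 of 10 members were called and all 3 were higher in Shh tumors. For Shh against the 6 intracranial Myc tumors these were Smarca4 (log2 fold change 0.85, SE 0.21, adjusted p = 0.00811), Smarcc2 (0.95, SE 0.17, adjusted p = 0.00111) and Brd9 (0.89, SE 0.16, adjusted p = 0.000839), where edgeR called 28.1% of genes, 13.1% higher and 15.0% lower. For Shh against the 5 extracranial Myc tumors they were Smarca2 (1.58, SE 0.52, adjusted p = 0.0320), Smarcc2 (0.88, SE 0.18, adjusted p = 0.00247) and Brd9 (0.85, SE 0.16, adjusted p = 0.00151), where 29.2% of genes were called, 13.8% higher and 15.3% lower. The Smarca2 call was lost in 7 of 16 fits that left out a single tumor (29048, 38594A, R26P87, 43825B, 43987A, 43998A or R26P123), at an adjusted p of up to 0.0741. These comparisons share the 5 Shh tumors. Without 29048, 7 members were called against intracranial Myc tumors (with 5358 of 21777 genes) and 6 against extracranial ones (with 5458 of 21777 genes). Smarcb1 was among both, at -1.97 (edgeR adjusted p = 0.0276) and -1.97 (edgeR adjusted p = 0.0294).

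The second comparison set the 6 intracranial against the 5 extracranial Myc tumors, which differ in site within 1 subgroup. None of the 10 members passed (0 of 10 with edgeR, with DESeq2 and with limma, and 0 of 10 at an unadjusted p under 0.05 in edgeR, where 12.3% of all genes were), and edgeR called 0.0047% of the 21261 genes tested. Limma called 1 gene and DESeq2 505 of the 16966 genes it gave an adjusted p. With each, 1 of 10 members had an unadjusted p under 0.05, as did 2304 of 21261 genes with DESeq2 and 1237 of 21248 with limma. Log2 fold changes ran from -0.45 (SE 0.34) for Arid1b to 0.66 (SE 0.55) for Smarca2, with -0.02 (SE 0.55) for Smarcb1, -0.39 (SE 0.21) for Smarca4, -0.08 (SE 0.20) for Smarcc2 and -0.05 (SE 0.17) for Brd9. Both ends of that range rested on single tumors, since Smarca2 was at 0.071 without R26P115 and Arid1b at -0.078 without 43990A. With 43990A, a tumor of the nose, counted as intracranial, Arid1b was at 0.25. The standard errors of Smarcb1 and Smarca2 leave room for differences between the sites of the size seen between subgroups.

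**Figure D3:**
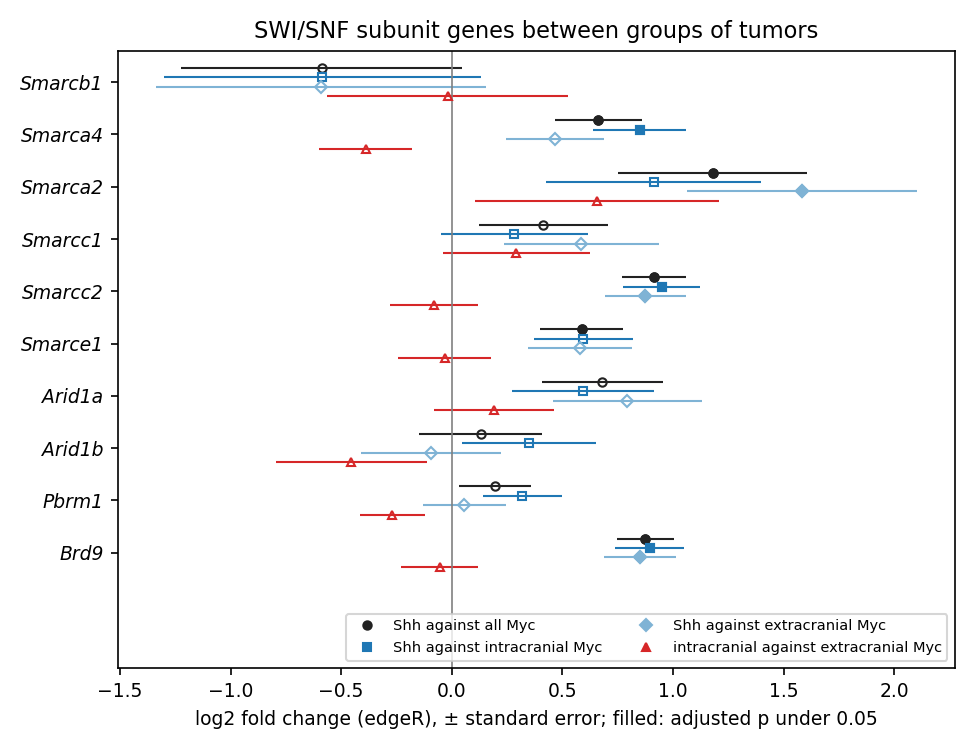
Log2 fold changes of the 10 subunit genes by edgeR in 4 comparisons, with bars for the standard error and filled symbols for an adjusted p under 0.05. Smarcc2 and Brd9 are called in all 3 comparisons of Shh with Myc tumors, and none of the 10 is called between the Myc sites.

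Per transcript length, Smarcb1 was the lowest of the 10 genes by mean log2(TPM + 1) in every group, but not beyond the spread in Myc tumors. It lay 0.52 (SD 1.49) below Arid1b in the intracranial ones, and in the extracranial ones 0.01 (SD 1.25) below Smarca2, which was the higher of the pair in 2 of 5 tumors. In Shh tumors it lay 1.97 (SD 1.79) below Arid1b. The top places were held by Smarcc2, Smarce1, Arid1a and Smarca4 in each group, in an order that differed. Smarcc2 led in Shh tumors, where its mean lay 0.29 above that of Smarce1 (SD of the difference within tumors 0.41), so that these neighbours did not differ beyond their spread. Arid1a led in intracranial Myc tumors by 0.05 (SD 0.56) over Smarce1, and Smarce1 in extracranial ones by 0.05 (SD 0.10) over Smarcc2. Steps beyond the spread included those from Smarca4 to Smarcc1 in Shh tumors (0.63, SD 0.21, 5 of 5 tumors), from Smarcc1 to Brd9 in intracranial Myc tumors (0.97, SD 0.69, 6 of 6) and from Arid1a to Smarcc1 in extracranial Myc tumors (0.67, SD 0.25, 5 of 5). The ratio of Smarcb1 TPM to the median TPM of the other 9 members was at a median of 0.0407 in Shh, 0.190 in intracranial Myc and 0.260 in extracranial Myc tumors. It was 0.756 in 29048, 0.744 in R26P115 and 0.862 in 43825B, the 3 highest. These ratios were compared with no test.

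Ratios within a tumor do not depend on the scaling between libraries. Smarca4 exceeded Smarca2 in 15 of 16 tumors, with a median ratio of TPM of 2.28 in Shh (1.01 to 3.36), 3.61 in intracranial Myc (0.894 to 6.21) and 4.35 in extracranial Myc tumors (lowest 3.03). R26P115 was the single tumor below 1, and 29048 was the lowest of the Shh tumors. Smarcc1 was below Smarcc2 in 14 of 16 tumors, at a median ratio of 0.453 in Shh, 0.674 in intracranial Myc and 0.641 in extracranial Myc tumors, and both exceptions were intracranial Myc tumors, with the highest ratio at 1.38. Arid1a exceeded Arid1b in 16 of 16 tumors, by 1.71-fold in 43990A to 6.82-fold. The paralogs of each pair share 0 stretches of 100 bases in their annotated transcripts, the read length used, so reads of that length do not match both.

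**Figure D4:**
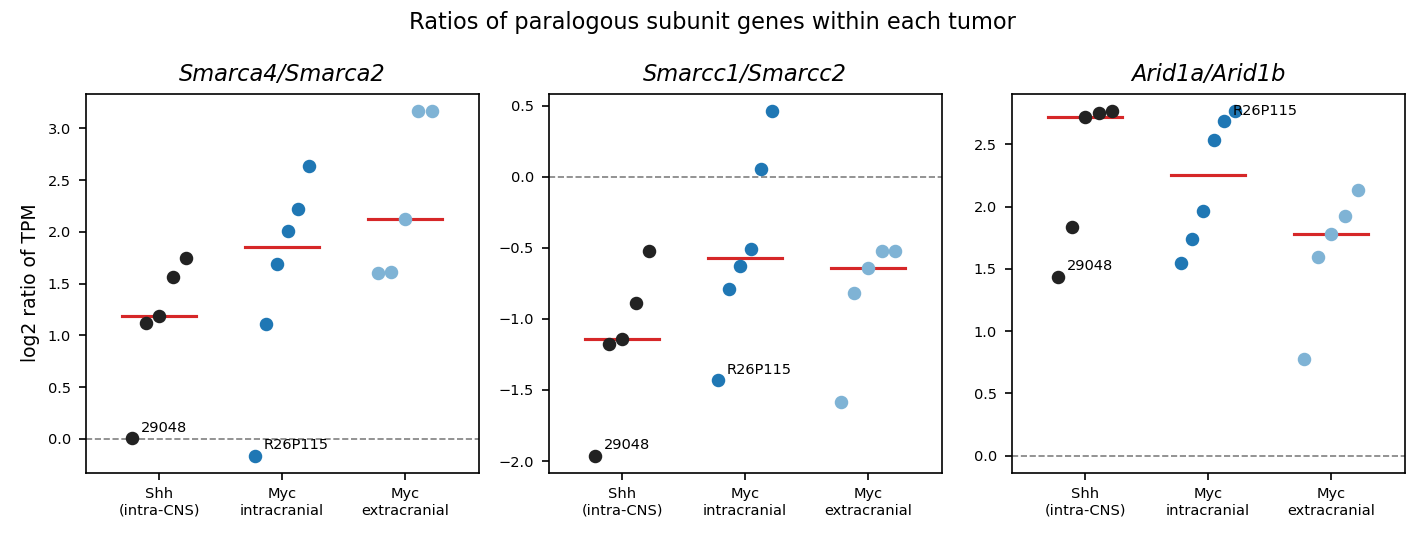
Log2 ratios of TPM between paralogous subunit genes in each tumor, with red lines for group medians and a dashed line at equal levels. Smarca4 exceeds Smarca2 in 15 of 16 tumors, Smarcc2 exceeds Smarcc1 in 14 of 16 and Arid1a exceeds Arid1b in 16 of 16.

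Beyond the 10 members, 19 further SWI/SNF genes were examined, of which edgeR called 12 between Shh and Myc tumors, 10 higher and 2 lower in Shh, with a median log2 fold change of 0.55, beside 33.1% of all genes (16.1% higher and 17.0% lower). The largest were Actl6b, the neuronal actin-related subunit, at 10.1 to 107 TPM in Shh and 0.0 to 0.717 TPM in Myc tumors (7.26, SE 0.95, adjusted p = 4.97e-05), and Dpf3, a PHD finger subunit, at 2.43 to 4.93 and 0.0 to 0.309 TPM (4.88, SE 0.71, adjusted p = 0.000111). Smarcd3 (Baf60c) was at 165 to 265 against 14.8 to 55.2 TPM (2.23, SE 0.27, adjusted p = 2.94e-05), and Smarcd1 (Baf60a) at 97.2 to 148 against 16.8 to 47.7 TPM (1.28, SE 0.18, adjusted p = 9.84e-05). The third paralog of that set moved the other way, since Smarcd2 (Baf60b) was at 27.4 to 53.4 against 30.9 to 87.5 TPM (-0.96, SE 0.22, adjusted p = 0.00333). Ss18l1 (CREST) was higher in Shh tumors by 2.08 (SE 0.26, adjusted p = 3.62e-05), while its paralog Ss18 was at -0.33 (SE 0.18, adjusted p = 0.175). Actb, a subunit as well as the cytoskeletal actin, was lower by 1.69 on the log2 scale (-1.69, SE 0.31, adjusted p = 0.000586). The partners of Brd9 in the non-canonical complex, Bicra and Bicral, were higher in Shh tumors too, by 0.89 (SE 0.23, adjusted p = 0.00757) and 0.55 (SE 0.20, adjusted p = 0.0434). So were the PBAF subunits Arid2 (0.52, adjusted p = 0.0351) and Brd7 (0.63, adjusted p = 0.0127), and Bcl7a (1.48, adjusted p = 0.0168). The 12 calls became 10 to 13 when single tumors were left out (5827 to 8642 over all genes). They became 10 in numbered mice alone (7 higher and 3 lower, with 6433 of 21509 genes). Among tumors induced at E6 alone 7 were called (6 higher and 1 lower, with 3742 of 20904 genes), and in R26P mice alone 0, as over all genes. With limma on log2(TPM + 1), 14 were higher and 1 lower, with 7060 and 1701 over all genes. Neuron markers summed to 165 to 2389 TPM in the 4 Shh tumors other than 29048 and to 37.5 to 1430 TPM in Myc tumors, and their part in the levels of Actl6b and Dpf3 was not tested.

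**Figure D5:**
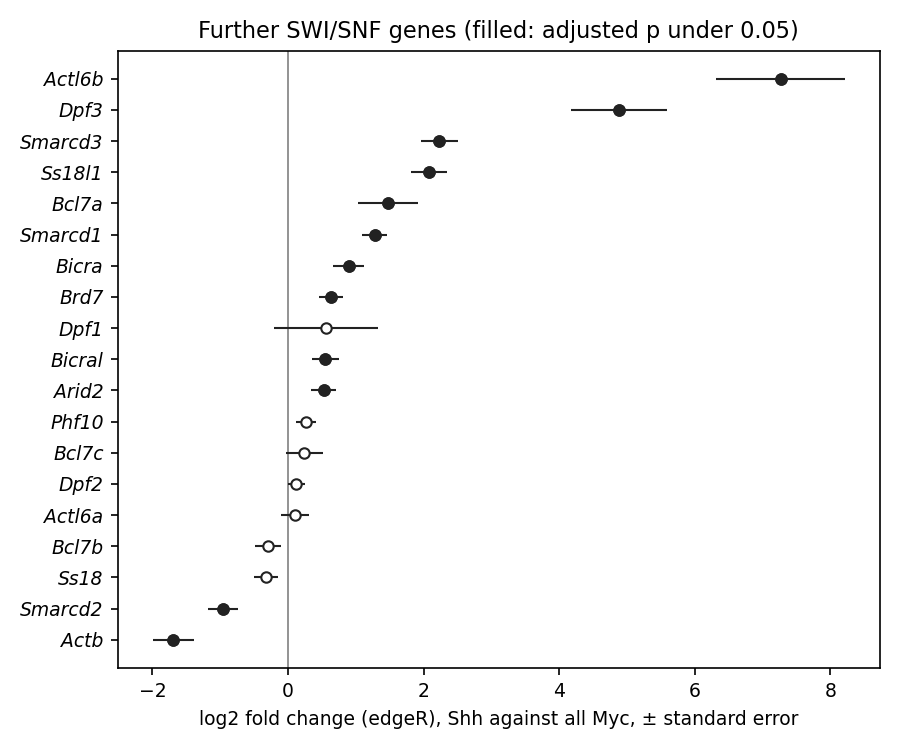
Log2 fold changes of 19 further SWI/SNF genes between Shh and all Myc tumors by edgeR, with bars for the standard error. Filled points pass an adjusted p under 0.05, which are 10 genes higher and 2 lower (Smarcd2 and Actb) in Shh tumors.

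Among 24 genes of other remodelers (ISWI, CHD, INO80 and related families), 10 were called, 9 higher and 1 lower in Shh tumors, at a median log2 fold change of 0.41, where the share over all genes was 33.1% (16.1% higher and 17.0% lower). The highest were Cecr2 at 9.48 to 47.5 against 0.0783 to 2.86 TPM (4.62, SE 0.68, adjusted p = 0.000124), Chd5 (2.99, SE 0.75, adjusted p = 0.00631) and Chd7 (2.75, SE 0.40, adjusted p = 0.000106). The lowest of those called were Baz1a, lower in Shh tumors (-1.32, SE 0.41, adjusted p = 0.0206), Atrx (0.59, SE 0.15, adjusted p = 0.00613) and Srcap (0.67, SE 0.20, adjusted p = 0.0198). The call of Baz1a was not kept with limma on log2(TPM + 1), where 18 were higher and 0 lower, with 7060 and 1701 over all genes. Among tumors induced at E6 alone it was not kept either (4 higher and 0 lower, with 3742 of 20904 genes). Both lists lay on the same side as the members, so a median above that of all genes was not particular to the 10 subunits. Between the Myc sites 0 of 19 and 0 of 24 were called, with 2 and 1 at an unadjusted p under 0.05, which are no larger shares than the 12.3% of all genes.

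Within the 11 Myc tumors the level of Smarcb1 was compared with that of each other member and with 5 marker scores (immune, endothelial, fibroblast, skeletal muscle and cell cycle), 14 relations in all. None passed after adjustment. The strongest was Arid1b (Pearson r = -0.72, permutation p = 0.0129, adjusted p = 0.119, and Spearman rho = -0.68, permutation p = 0.0250, adjusted p = 0.175), at r = -0.52 without the 2 tumors farthest from the median. Smarcc1 followed (r = -0.66, permutation p = 0.0268, adjusted p = 0.119, and rho = -0.68, permutation p = 0.0247, adjusted p = 0.175), and r was -0.77 without 2 tumors. Arid1a (r = -0.66, permutation p = 0.0268, rho = -0.59, permutation p = 0.0606, adjusted p = 0.283, and r = -0.63 without 2 tumors) and Smarce1 (r = -0.64, permutation p = 0.0341, rho = -0.44, permutation p = 0.185, adjusted p = 0.646, and r = -0.70 without 2 tumors) were close to it, each at an adjusted p of 0.119 for r. Without R26P115 these 4 values of r were -0.52, -0.54, -0.61 and -0.46. Among the other members, Smarca4, Smarca2, Smarcc2, Pbrm1 and Brd9 had r = 0.03, 0.41, 0.27, -0.37 and 0.03 (permutation adjusted p of 0.476 or more). Without the 2 tumors farthest from the median these were -0.63, -0.42, 0.02, -0.009 and 0.27. In the 8 numbered mice alone the relation to Smarcc1 was r = -0.86 (permutation p = 0.00058, adjusted p = 0.00812; rho = -0.90, permutation p = 0.00469, adjusted p = 0.0657), the single one of 14 to pass, and the 3 R26P mice were too few for a value. The cell cycle score had r = -0.61 (permutation p = 0.0485, adjusted p = 0.136, and rho = -0.38, permutation p = 0.247, adjusted p = 0.691), and r was -0.26 without 2 tumors, of which R26P115 was 1. The endothelial, fibroblast and skeletal muscle scores had r = 0.20, -0.21 and 0.20 (permutation p = 0.551, 0.532 and 0.560 for endothelial, fibroblast and skeletal muscle, each with an adjusted p of 0.712), and skeletal muscle had r = 0.65 in the 8 numbered mice (permutation p = 0.0871, adjusted p = 0.244; rho = 0.74, permutation p = 0.0470, adjusted p = 0.199; r = 0.26 without 2 tumors). The immune score had r = 0.02 (permutation p = 0.964, adjusted p = 0.964, and rho = 0.15, permutation p = 0.657, adjusted p = 0.792). That value rested on R26P115, since without it r was 0.65 in the other 10 tumors (permutation p = 0.0435, adjusted p = 0.297, and rho = 0.54, permutation p = 0.114, adjusted p = 0.376), and in the 8 numbered mice it was 0.66 (permutation p = 0.0768, adjusted p = 0.244). These values were 0.31 and 0.15 without the 2 tumors farthest from the median. Without R26P115 skeletal muscle had r = 0.61 (permutation p = 0.0620, adjusted p = 0.297), and 0.39 without 2 more tumors.

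The genes whose levels were most like Smarcb1 over the 16 tumors, by Pearson correlation of group-centred log2(TPM + 1) among 12911 genes with a mean of at least 5 TPM, were Kcnab2 (r = 0.89), Glul (0.88), Cmtm5 (0.88), Fgfr3 (0.86) and Cst3 (0.86). These points share the libraries, and 2 tumors carried much of the likeness, since without 29048 and R26P115 the values were 0.70, 0.74, 0.36, 0.42 and 0.43. Of these genes, Glul, Fgfr3, Cmtm5 and Cst3 are known for high expression in glial cells. The tumor of 29048 held the highest sums of oligodendrocyte (7289 TPM), neuron (5366 TPM) and astrocyte (2629 TPM) markers, and R26P115 had an astrocyte sum of 194 TPM. The part of these cells in the likeness was not tested. None of the other 9 members was among the genes most like Smarcb1, with r from -0.78 (Smarce1) to 0.41 (Smarca2). Without 29048 and R26P115, r was -0.38 for Smarce1, -0.08 for Smarca2 and -0.70 for Arid1b.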

How the data were processed

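Polyadenylated RNA of 16 mouse tumors was sequenced as stranded, paired-end libraries of 100 bases. The authors mapped the reads to mm10 with STAR 2.5.3a, and the deposited counts are whole reads per gene, not normalized. TPM values per gene were deposited for the same tumors. The submitters' processing notes also name Trim Galore, FastQC and Picard, and the annotation and the use of strand in counting are not given in the sources used here. Tumors were grouped by the site in the labels, and subgroups followed from the study. One tumor (43990A), labelled as extracranial, is listed elsewhere in the study as intracranial and was kept as labelled.

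Genes counted at least once were tested with edgeR 4.0.16 (TMM, quasi-likelihood) in R 4.3.3, with p-values adjusted over all genes tested (Benjamini-Hochberg) and a call at an adjusted p under 0.05. The fit of Shh tumors held all 16 tumors, and that of the Myc sites the 11 Myc tumors. A standard error is the absolute log2 fold change over the root of the F statistic. Every mouse gave 1 tumor. Levels and correlations used log2(TPM + 1), and correlations were tested with 100000 permutations in scipy 1.17.1. The code was tested on simulated data. Alternatives were DESeq2 1.42.0, limma 3.58.1 on log2(TPM + 1), other scaling factors, edgeR's filter on low counts, a fold threshold, mouse names as a covariate, subsets of tumors and the omission of each tumor. Tumors without 29048 and R26P115, the R26P mice alone and CPM levels were added after the data were seen.

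Gene positions are from GENCODE (GRCm38), where 24490 of 24982 symbols matched, and promoters from RefSeq. Total counts of 17889968 to 110177889 per tumor set the counting precision, which was lowest for Smarcb1 (67 to 1134 counts). Reads carry no molecular identifiers, and p-values measure the spread between tumors. The genes named were all 10 members, the further SWI/SNF genes called, with the 8 of lowest adjusted p in full, the 3 highest and 3 lowest fold changes among other remodelers called, and the 5 genes most like Smarcb1. The members and lists were chosen with earlier results of these data known.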

Additional observations from a re-analysis of the deposited data

Results flagged for a closer look

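Single tumors lay far from the rest of their group in 4 of 42 groups of values examined, by the ratio of the gap to the range, and chance alone marks about 1 in 20 groups. Among extracranial Myc tumors, Smarcc2 in the tumor of R26P123 was at 6.80 on the log2(TPM + 1) scale, above the other 4. Among Shh tumors, Smarce1 in the tumor of 29048 was at 6.80 on the same scale, below the other 4. The log2 ratio of Smarcc1 to Smarcc2 in the extracranial tumor of 43825B was -1.59, the lowest of that group. The log2 ratio of Smarcb1 to the median of the other 9 members was -0.40 in the Shh tumor of 29048, above the other 4.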

How the results depend on the processing

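No paired analysis was possible because the groups share no mouse, and replicate numbers only follow the order of the samples. Of the 10 members, 5 were called between Shh and Myc tumors. The count was 1 with a fold threshold of 1 on the log2 scale (5689 of 21854 genes), 9 with limma on log2(TPM + 1) (8761 of 21841 genes), 6 with DESeq2 (8689 of 18783), 7 (6 higher and 1 lower) without 29048 and R26P115 (7591 of 21700), 3 in numbered mice alone (6433 of 21509), 1 among tumors induced at E6 alone (3742 of 20904) and 0 in R26P mice alone, where edgeR called 0 of 20347 genes (3514 at an unadjusted p under 0.05). It ran from 2 to 6 when single tumors were left out, with 5827 to 8642 calls over all genes. It was 6 (5 higher and 1 lower) without 29048 (6202 of 21777), 3 without 38594A, 29050A, R26P98 or 43989C and 2 without R26P87 (6134 of 21838). Against intracranial Myc tumors (3 called) it was 0 with the fold threshold (5034 of 21854 genes), 8 with limma (7813 of 21841) and 7 without 29048 and R26P115 (6691 of 21700). Without single tumors it was 3 to 7 there, with 4722 to 7414 calls over all genes. Against extracranial Myc tumors (3 called) it was 1 with the fold threshold (5466 of 21854), 5 with DESeq2 (7560 of 18903), 8 with limma (7477 of 21841) and 7 without 29048 and R26P115 (6684 of 21700). Without single tumors it was 2 to 6 there, with 5064 to 7334 calls over all genes. The median difference of the members in log2(TPM + 1) was 1.10, against 0.58 in log2 CPM after TMM. Of 14 relations of Smarcb1 in Myc tumors 0 passed, and 1 in numbered mice alone.

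Fold changes that turned direction were none of the called ones. In numbered mice alone, Smarcb1 was at 0.14, Arid1b at -0.086 and Pbrm1 at -0.018 against all Myc tumors, Smarcb1 at 0.54 against intracranial and Pbrm1 at -0.11 against extracranial Myc tumors. Between the Myc sites, Smarca2 was at -0.45 and Smarce1 at 0.16 in numbered mice. Among tumors induced at E8, Smarcb1 was at 0.43, Smarcc1 at -0.11, Smarce1 at 0.081, Arid1a at -0.083 and Brd9 at 0.041. Smarcb1 was at 0.023 with DESeq2, 0.023 with its size factors and 0.014 with the filter on low counts. With 43990A as intracranial, Smarce1 was at 0.0041 and Arid1b at 0.25, and Arid1b was at 0.31 for Shh against extracranial tumors. With limma and 43990A kept as labelled, Arid1b was at 0.52 for Shh against extracranial tumors. Smarce1 was at 0.038 without 29048 and R26P115. Without single tumors, the values between the Myc sites ran from -0.69 to 0.20 for Smarcb1, -0.19 to 0.011 for Smarcc2, -0.22 to 0.038 for Smarce1 and -0.13 to 0.0035 for Brd9. Those of Shh tumors ran from -1.97 to 0.10 for Smarcb1 against intracranial, and from -0.24 to 0.31 for Arid1b and -0.054 to 0.20 for Pbrm1 against extracranial tumors. The causes were not tested.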
